A study of Homo sapiens with 6 samples.

Results

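The OAS family was followed in BHT101, an established human cell line from an anaplastic thyroid carcinoma, after transfection with an SK4 plasmid or a control plasmid. SK4 is the calcium-activated potassium channel KCa3.1, encoded by KCNN4. The 4 members were the rows of the deposited expression table whose symbol was OAS1, OAS2, OAS3 or OASL, out of 32896 genes in the table. There were 6 RNA-seq libraries, 3 from cells with SK4 overexpression and 3 from cells with the control plasmid, all harvested 48 h after transfection with Lipofectamine 2000, a lipid reagent. Every library came from transfected cells, so levels without plasmid and lipid were not measured. All 6 came from 1 cell line, and the treatment label of control replicate 3 reads BHT102 where its other labels read BHT101. Whether the replicates were separate cultures is not in the labels, and the tests then measure only the spread between these libraries.

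OAS proteins are interferon-induced sensors of double-stranded RNA. When they bind it, OAS1, OAS2 and OAS3 join ATP into short chains with an unusual 2′-5′ linkage, called 2-5A. These chains act as an intracellular messenger that leads to RNA breakdown and a halt of protein synthesis. OAS1 holds a single synthetase unit, whereas OAS2 and OAS3 repeat it in tandem. OASL has the same fold followed by ubiquitin-like domains, makes no 2-5A, and instead raises signalling by the RNA sensor RIG-I. Interferon induces all of them through ISGF3, a transcription factor complex that includes STAT2 and IRF9 and binds the interferon-stimulated response element in their promoters.

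The promoters of OAS1 and OAS3 are shown because this element is the DNA through which interferon reaches the family. The windows run from 250 bases before to 50 bases after the RefSeq gene start on the plus strand of GRCh38.p14, at chr12:112906712-112907011 for OAS1 and chr12:112938224-112938523 for OAS3. Capitals mark matches to the core of the element, which is GAAA, 2 free bases and GAAA again, and to the same letters with 1 free base between them (GAAANGAAA).
OAS1: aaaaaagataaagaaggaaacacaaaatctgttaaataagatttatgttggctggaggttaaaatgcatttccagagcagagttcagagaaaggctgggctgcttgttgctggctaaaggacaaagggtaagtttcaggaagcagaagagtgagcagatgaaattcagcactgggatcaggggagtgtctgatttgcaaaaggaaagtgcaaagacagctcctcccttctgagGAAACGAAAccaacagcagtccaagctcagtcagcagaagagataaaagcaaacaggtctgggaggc
OAS3: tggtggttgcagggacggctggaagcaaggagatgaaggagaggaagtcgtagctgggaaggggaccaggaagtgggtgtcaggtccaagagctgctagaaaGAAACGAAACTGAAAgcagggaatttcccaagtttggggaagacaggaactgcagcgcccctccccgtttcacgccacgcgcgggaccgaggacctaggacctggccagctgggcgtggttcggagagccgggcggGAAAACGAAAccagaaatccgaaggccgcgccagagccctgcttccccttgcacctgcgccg
In OAS1 the capitals are a single GAAACGAAA at positions -17 to -9 from the RefSeq gene start. In OAS3 the upstream capitals hold GAAACGAAA at -148 to -140, which overlaps GAAACTGAAA at -143 to -134. The downstream capitals of OAS3 are GAAAACGAAA at -12 to -3. Both strands were searched, and the core with 2 free bases was found in 3.57% of all 35114 promoter windows of this length and GAAANGAAA in 3.12%. The spacing with 1 free base was added after these sequences were seen. The longer form, the core with 2 free bases followed by CT, was in neither window, against 0.273% of all windows. The gamma-activated site TTCNNNGAA matched OAS1 alone, as TTCAGAGAA at -168 to -160, against 7.66% of all windows. Among other interferon-stimulated effector genes, described further on, 10 of the 11 with a window held the core with 2 free bases, 9 held its longer form and 3 held GAAANGAAA. OAS2 and OASL were not in the promoter table. A match describes letters only and is not evidence of binding.

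OAS1, OAS3 and OAS2 stand in this order on the plus strand of chromosome 12, and OASL lies apart from them. In GENCODE release 29 on GRCh38, OAS1 (ENSG00000089127) spans 112906777 to 112933222, OAS3 (ENSG00000111331) 112938352 to 112973249 and OAS2 (ENSG00000111335) 112978395 to 113011723. Gaps of 5129 bp between OAS1 and OAS3 and 5145 bp between OAS3 and OAS2 separate them, and the cluster is 104.9 kb long. OASL (ENSG00000135114) lies 8.01 Mb further on, on the minus strand, at 121019111 to 121039242. The GENCODE spans of OAS1 and OAS3 begin upstream of the RefSeq starts used for the promoter windows. The matches in OAS1 and the downstream match in OAS3 therefore lie inside these spans. The annotation gives 11 transcripts for OAS1, 7 each for OAS2 and OAS3 and 4 for OASL, and a gene-level value adds them together. The paralogs are distinct enough for 150 nt reads: the longest identical stretch between transcripts of any pair was 31 bases, between OAS1 and OASL, and the other pairs shared 15 to 27 bases.

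**Figure D1:**
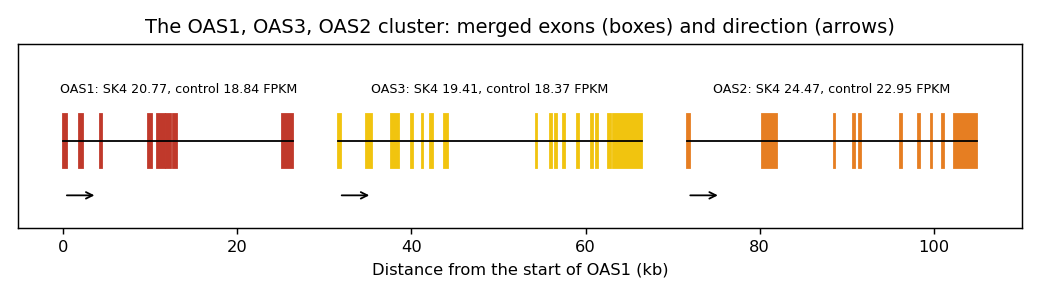
Gene models of the OAS1, OAS3 and OAS2 cluster, drawn by distance from the start of OAS1 in kb. Boxes are exons merged over all annotated transcripts, arrows give the direction of transcription, and the text gives mean FPKM per group (n = 3 each); the 3 genes point the same way and have means between 18.37 and 24.47 FPKM.

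The 3 flanking protein-coding genes described here were nearly silent in both groups. RPH3A, a synaptic vesicle protein gene 7.9 kb from OAS1, held 0 to 0.01 FPKM in SK4 and 0.01 to 0.03 FPKM in control libraries. DTX1, a Notch pathway gene 44986 bp beyond OAS2, held 0 to 0.02 FPKM in SK4 and 0 to 0.03 FPKM in control libraries. P2RX7, the ATP-gated channel gene 93.6 kb beyond OASL, lay at 0.07 to 0.09 FPKM in SK4 and 0.05 to 0.1 FPKM in control libraries. The antisense gene AC004551.1 runs across the whole cluster on the opposite strand, at 1.52 to 2.13 FPKM in SK4 and 1.26 to 2.28 FPKM in control libraries. The libraries kept the strand, but the sources used here do not say whether counting used it.

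KCNN4 itself checked the labels: it held 184.14, 147.66 and 169.2 FPKM in SK4 libraries and 8.31, 8.26 and 8.52 FPKM in control libraries. It was the only one of 11139 tested genes that was called (limma, adjusted p = 8.83e-07). Depth was estimated at 29700000 to 38500000 fragments a library, and control replicate 3 was the shallowest. All 5 epithelial markers were measured, with summed levels of 541.73 to 591.28 FPKM in SK4 and 526.72 to 575.02 FPKM in control libraries. CDH1 was the lowest of them, at 1.59 to 1.97 FPKM in SK4 and 1.65 to 1.79 FPKM in control libraries. None of 7 thyroid follicular markers reached 1 FPKM in 3 libraries, their highest value being 0.4 FPKM, so the lineage on the label rests on the cell line's name. Leukocyte, fibroblast and endothelial lists had 1 of 5, 1 of 5 and 0 of 3 genes past that level, CD14 for the leukocyte and LUM for the fibroblast list. CD14 held 3.32 to 4.2 FPKM in SK4 and 3.72 to 4.43 FPKM in control libraries. LUM held 22.79 to 31.21 FPKM in SK4 and 21.89 to 26.92 FPKM in control libraries. The pan-leukocyte gene PTPRC was at 0 to 0.01 FPKM in every library, and the fibroblast collagen gene COL1A1 at 0.05 to 0.07 FPKM in SK4 and 0.03 to 0.08 FPKM in control libraries.

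All 4 OAS genes were expressed in every library, and none was called different between the plasmids. Levels are in FPKM, fragments scaled by gene length and by the mapped fragments of the library, so members can be set side by side under the authors' gene lengths, which are not stated. OAS1, the single-unit synthetase, held 20.31, 20.43 and 21.56 FPKM in SK4 libraries and 18.61, 19.11 and 18.81 FPKM in control libraries. Every SK4 value was above every control value, and the highest was SK4 replicate 3. The means were 20.8 ± 0.69 FPKM in SK4 and 18.8 ± 0.252 FPKM in control libraries (SD, n = 3 each), a fold of 1.10 with a 95% confidence interval of 1.03 to 1.18. On the scale of log2(FPKM + 0.5) the fold change was 0.14 with a standard error of 0.042. It was not called (limma, unadjusted p = 0.0135, adjusted p = 0.99997), and an exact two-sided permutation test over the libraries gave p = 0.1, which is the smallest that 3 against 3 libraries allow.

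OASL, the member without synthetase activity, was the most abundant of the family. It held 80.87, 83.82 and 75.5 FPKM in SK4 libraries and 70.93, 71.72 and 71.28 FPKM in control libraries. The control values lay within 1 FPKM of each other, all below the SK4 values, which were more spread. Means were 80.1 ± 4.22 FPKM in SK4 and 71.3 ± 0.396 FPKM in control libraries (SD, n = 3 each), a fold of 1.12 with a 95% confidence interval of 1.05 to 1.20. The log2 fold change was 0.16 with a standard error of 0.043, which was not called (limma, unadjusted p = 0.00601, adjusted p = 0.99997; exact two-sided permutation p = 0.1). This was the largest fold change of the 4 with the libraries weighted equally. It was smaller than that of OAS1 with library weights (0.12 for OASL and 0.17 for OAS1) and without SK4 replicate 2 (0.13 for OASL and 0.15 for OAS1).

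OAS2, with its tandem pair of units, overlapped between the groups. It held 24.59, 23.73 and 25.1 FPKM in SK4 libraries and 23.51, 23.79 and 21.55 FPKM in control libraries. SK4 replicate 2 lay between control replicates 1 and 2, and control replicate 3 was the lowest of all. The fold was 1.07 with a 95% confidence interval of 0.982 to 1.16 (log2 fold change 0.092, limma adjusted p = 0.99997; exact two-sided permutation p = 0.2). Leaving out control replicate 3 gave a log2 fold change of 0.048.

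OAS3, the largest synthetase and in human cells the main source of 2-5A, also overlapped. It held 19.22, 19.05 and 19.96 FPKM in SK4 libraries and 18.14, 19.21 and 17.76 FPKM in control libraries. Control replicate 2 lay above SK4 replicate 2 and just below SK4 replicate 1. The fold was 1.06 with a 95% confidence interval of 0.979 to 1.14 (log2 fold change 0.078, limma adjusted p = 0.99997; exact two-sided permutation p = 0.2). Over the 4 members the upper ends of the intervals ran from 1.14-fold to 1.20-fold.

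**Figure D2:**
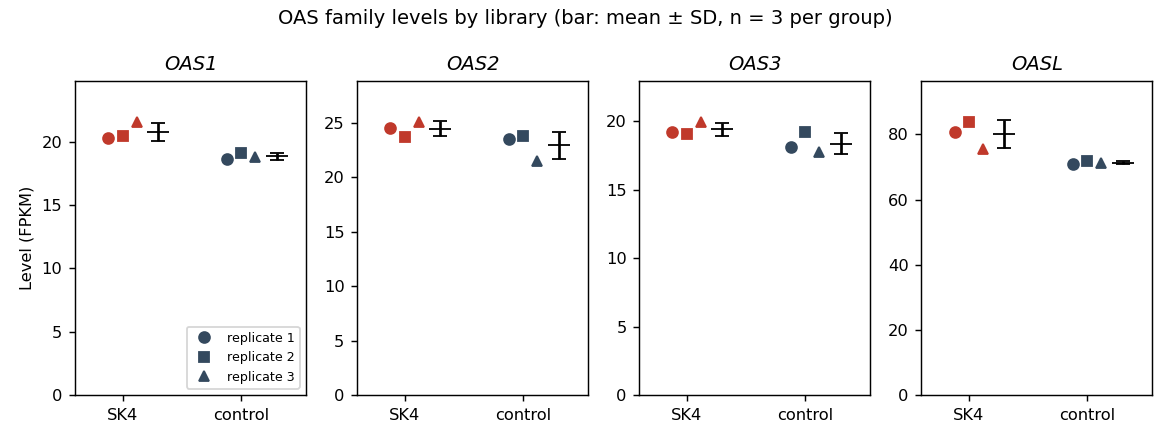
Level of each OAS gene in FPKM (vertical axes from 0) in SK4 and control libraries; symbols give the replicate number and bars the mean ± SD, n = 3 per group. In these values, without centring of the libraries, the groups do not overlap for OAS1 and OASL and overlap for OAS2 and OAS3.

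In FPKM without centring of the libraries, all SK4 values lay above all control values for 3.53% of all tested genes. The same held for 2 of the 4 members, OAS1 and OASL. These 2 also had an unadjusted p below 0.05, as did 1.65% of the tested genes in either direction. The share of tested genes called after adjustment was 0.00898%, and 0 members were among them. All 4 fold changes were positive, as were 57.9% of those of all tested genes. The median over the members was 0.11 on the log2 scale, beside 0.011 over all tested genes. Which members were apart depended on the shift of whole libraries, read as log2 differences from the mean of the 6 libraries. OAS2 lay above the median of all tested genes in every SK4 library and below it in every control library. OAS1 lay just below that median in SK4 replicate 1 (0.0374 against 0.0384) and just above it in control replicate 3 (-0.0706 against -0.0712). Relative to these medians OAS2 was therefore apart and OAS1 overlapped. In bulk RNA a change in some cells and a smaller one in all cells cannot be told apart.

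Counting error was small at these levels. With the estimated depths and the longest annotated transcripts as lengths, the members held about 1350 (OAS1), 3030 (OAS2), 3540 (OAS3) and 6910 (OASL) fragments in their lowest library. The authors' lengths are not stated, and shorter ones would mean fewer fragments and a larger counting error. Under the longest transcripts, the coefficient of variation from counting is at most 2.72% for OAS1, 1.82% for OAS2, 1.68% for OAS3 and 1.2% for OASL. The reads carry no molecular identifiers, so this is counting error alone.

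The share that each member took of the family total overlapped between the groups, while the totals themselves did not. The 4 members together made 144.99, 147.03 and 142.12 FPKM in SK4 libraries and 131.19, 133.83 and 129.4 FPKM in control libraries. The sums did not overlap (144.7 ± 2.47 FPKM in SK4 and 131.5 ± 2.23 FPKM in control libraries, SD, n = 3 each). Their exact two-sided permutation p was 0.1, the smallest that 3 against 3 libraries allow. The active synthetases OAS1, OAS2 and OAS3 alone summed to 64.12, 63.21 and 66.62 FPKM in SK4 libraries and 60.26, 62.11 and 58.12 FPKM in control libraries, also without overlap (exact two-sided permutation p = 0.1). OASL made up 55.8%, 57.0% and 53.1% of the family total in SK4 libraries and 54.1%, 53.6% and 55.1% in control libraries. The share of OAS3 was 13.4% ± 0.562 in SK4 and 14.0% ± 0.338 in control libraries (SD, n = 3 each), with overlapping ranges (exact two-sided permutation p = 0.3). The difference, SK4 minus control, was -0.55 percentage points. Without SK4 replicate 3 it was -0.862, and the ranges then no longer overlapped; without SK4 replicate 2 it was -0.318 and without control replicate 2 it was -0.357. OAS1 made 14.4% ± 0.706 in SK4 and 14.3% ± 0.182 in control libraries, and OAS2 16.9% ± 0.762 in SK4 and 17.5% ± 0.693 in control libraries, with exact two-sided permutation p of 1 and 0.5.

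The order of the levels was OASL, then OAS2, then OAS1 and OAS3. The steps below OASL are small beside the room in gene length: exons merged over all transcripts and the longest transcript give 4947 and 2416 bases for OAS1, 6264 and 4734 for OAS2, and 8251 and 6719 for OAS3. The order of these 3 therefore holds only under the lengths the authors used. The lowest OASL value, 75.5 FPKM in SK4 and 70.93 FPKM in control libraries, was far above the highest OAS2 value, 25.1 FPKM in SK4 and 23.79 FPKM in control libraries. OAS2 was above OAS1 in every library without overlap of their ranges in either group. OAS1 and OAS3 were close: OAS1 was above OAS3 in 3 of 3 SK4 libraries and 2 of 3 control libraries, and their ranges overlapped in the control libraries. The log2 ratio of OAS1 over OAS3 was 0.080, 0.10 and 0.11 in SK4 libraries and 0.037, -0.0075 and 0.083 in control libraries, which overlapped (exact two-sided permutation p = 0.2). Averaged over the libraries, OASL ranked 543rd from the top of the 11139 tested genes by level, and OAS1, OAS2 and OAS3 lay at percentiles 81.3, 84.2 and 80.5.

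The members did not follow the libraries in the same way. Control replicate 3 stood lower than the mean of the other controls by a median log2 difference of -0.097 over all tested genes. OAS2 and OAS3 were lower there too, by -0.13 and -0.070, whereas OAS1 and OASL were at -0.0036 and -0.00088. Without control replicate 3, OAS1 and OASL had log2 fold changes of 0.14 and 0.16, as with all libraries, and OAS3 had 0.055. SK4 replicate 2 stood at a median of -0.036 from the other SK4 libraries. OASL was 0.10 higher in it, its highest library, and OAS1, OAS2 and OAS3 were at -0.034, -0.065 and -0.039. When control replicate 3 and SK4 replicate 2 were both left out, the log2 fold changes were 0.15 for OAS1, 0.070 for OAS2, 0.068 for OAS3 and 0.13 for OASL. Across the 6 libraries the log2 levels of OAS2 and OAS3 had a Pearson correlation of 0.90, those of OAS1 and OAS3 0.85 and those of OAS1 and OAS2 0.73. OASL correlated at 0.66 with OAS1, 0.45 with OAS2 and 0.48 with OAS3. By rank (Spearman) OAS2 and OAS3 were at 1, OAS1 and OASL at 0.83, and OAS1 at 0.77 with both OAS2 and OAS3. OASL was at 0.54 by rank with both OAS2 and OAS3. The order of the pairs thus depended on the measure. These values pool both groups, and the genes share the libraries and their depth, so they describe these libraries only.

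**Figure D3:**
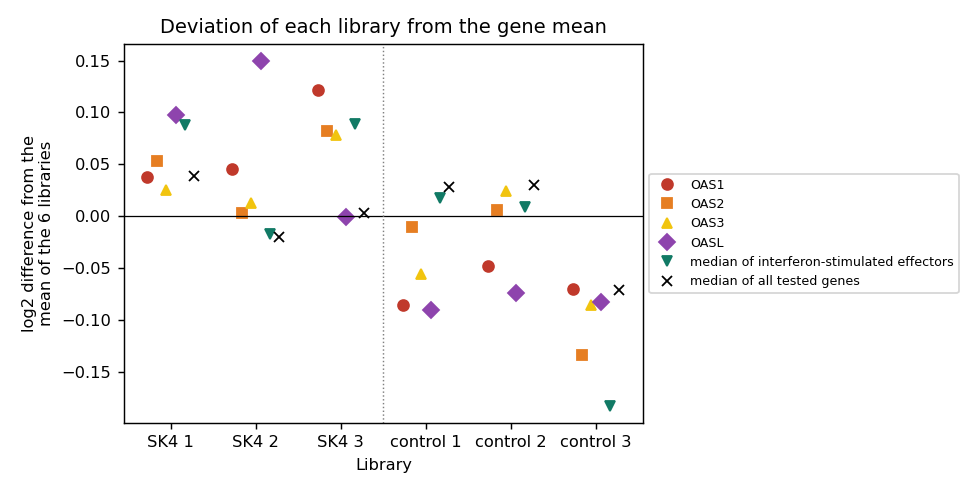
Log2 difference of each library from the mean of the 6 libraries, for the 4 OAS genes, the median of the other interferon-stimulated effectors and the median of all tested genes, with SK4 libraries left of the dotted line. OAS1 and OASL lie below 0 in all 3 control libraries, and the effector median is lowest in control replicate 3 (-0.18).

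Genes that act on the 2-5A response overlapped between the plasmids. ABCE1, an ATPase that recycles ribosomes and dampens the response, held 9.37 to 12.46 FPKM in SK4 and 8.66 to 11.2 FPKM in control libraries. PDE12, a phosphodiesterase that degrades 2-5A, held 3.28 to 3.96 FPKM in SK4 and 3.05 to 4.07 FPKM in control libraries. AKAP7, which has a domain with the same kind of activity, lay at 0.62 to 0.94 FPKM in SK4 and 0.61 to 0.89 FPKM in control libraries and was not tested. Of these 3 genes 2 were tested, and 0 were called in either direction (limma, 0 with an unadjusted p below 0.05), with log2 fold changes of 0.086 for ABCE1 and 0.049 for PDE12. Both were negative without control replicate 3, and 1 of the 2 was without SK4 replicate 1.

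Upstream of the OAS genes, the interferon genes in the table lay below 1 FPKM in every library, apart from IFNL1. The receptor and ISGF3 genes listed here lay above that level, apart from IRF9. IFNB1, the type I interferon made by many cell types, held 0.19 to 0.42 FPKM in SK4 and 0.16 to 0.4 FPKM in control libraries. IFNL1, a type III interferon, was the only one of 8 interferon genes in the table that could be tested, at 1.72 to 2.52 FPKM in SK4 and 1.88 to 2.22 FPKM in control libraries (log2 fold change 0.0092). IFNL2 and IFNL3, near-identical copies whose shared reads are uncertain, lay at 0.31 to 0.43 and 0.39 to 0.68 FPKM in SK4 libraries and at 0.28 to 0.41 and 0.32 to 0.71 FPKM in control libraries. Of 6 receptor and ISGF3 genes 5 were tested and 0 were called (0 with an unadjusted p below 0.05). A positive fold change was seen for 4 of the 5, against 57.9% of all tested genes. The median of the 5 was 0.059. That median was -0.011 without control replicate 3, with 2 of 5 positive, 0.10 without control replicate 2 and 0.0034 with library weights. STAT2, a signal carrier of ISGF3, had a log2 fold change of 0.074 with overlapping groups. IRF9, its DNA-binding subunit, was listed at 0.32 to 0.47 FPKM in SK4 and 0.24 to 0.39 FPKM in control libraries. It is overlapped on the same strand by AL136295.5, listed at 9.15 to 9.53 FPKM in SK4 and 8.63 to 9.38 FPKM in control libraries, and the sources used here do not say how reads common to both genes were counted.

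Of the 10 other sensor genes 8 were tested and 0 were called (0 with an unadjusted p below 0.05). Of these 8, 5 had a positive and 3 a negative fold change, against 57.9% positive over all tested genes. The median of the 8 was 0.045. The median was -0.0071 without control replicate 3, 0.011 without SK4 replicate 1, 0.0035 with library weights, and 0.077 without control replicate 1 and 0.072 without SK4 replicate 2. DDX58, which encodes the RIG-I that OASL acts on, held 7.01, 5.28 and 6.01 FPKM in SK4 libraries and 6.33, 5.93 and 4.4 FPKM in control libraries. EIF2AK2, the kinase PKR that also responds to double-stranded RNA, had a log2 fold change of 0.039. For ADAR, the editing enzyme that limits double-stranded RNA, it was -0.0094. CGAS is a DNA sensor with a nucleotidyltransferase fold like that of the OAS proteins. It held 5.05, 4.99 and 5.02 FPKM in SK4 libraries and 4.63, 4.98 and 4.31 FPKM in control libraries. Of the 8 sensors it alone had groups that did not overlap, with SK4 on top, against 3.53% of all tested genes. The lowest SK4 value, 4.99 FPKM, lay just above the highest control value, 4.98 FPKM. The log2 fold change of CGAS was 0.10 and was not called (limma, unadjusted p = 0.156). STING1, the partner of CGAS, had a log2 fold change of -0.014.

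The other interferon-stimulated effectors had a median log2 fold change of 0.11 over 15 tested genes, beside 0.11 over the OAS members. Leaving out control replicate 3 gave an effector median of 0.056 with 11 of 15 positive, and an OAS median of 0.095 with 4 of 4 positive. The mean log2 level of the effectors was 5.76, 5.59 and 5.71 in SK4 libraries and 5.64, 5.64 and 5.44 in control libraries, which overlapped (exact two-sided permutation p = 0.3). That of the 4 OAS genes was 4.92, 4.92 and 4.94 in SK4 libraries and 4.81, 4.84 and 4.77 in control libraries, without overlap (exact two-sided permutation p = 0.1, the smallest possible). Gene by gene both lists were mixed in FPKM without centring: OAS2 and OAS3 overlapped between the groups, and 4 of the 15 effectors did not. With all libraries 14 of the 15 effectors were positive, against 57.9% of all tested genes. By limma 0 were called and 4 reached an unadjusted p below 0.05, against 1.65% of all tested genes in either direction. Those 4, MX1, MX2, ISG15 and IRF7, also had groups that did not overlap, with SK4 on top, against 3.53% of all tested genes. MX1, a GTPase that blocks viral replication, held 21.88, 21.87 and 21.93 FPKM in SK4 libraries and 20.19, 20.79 and 19.64 FPKM in control libraries. IFIT2, which binds viral RNA with its relatives, had the largest log2 fold change of the list, 0.25, but its 95% interval ran from -0.14 to 0.64. The intervals of OAS1 and OASL were narrower, from 0.037 to 0.24 and from 0.064 to 0.27. The 4 effectors with the highest levels, IFI6, ISG15, BST2 and IFI27, had log2 fold changes of 0.038, 0.11, -0.0032 and 0.015. Whether the fold changes of the OAS genes differed from those of these effectors was not tested.

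**Figure D4:**
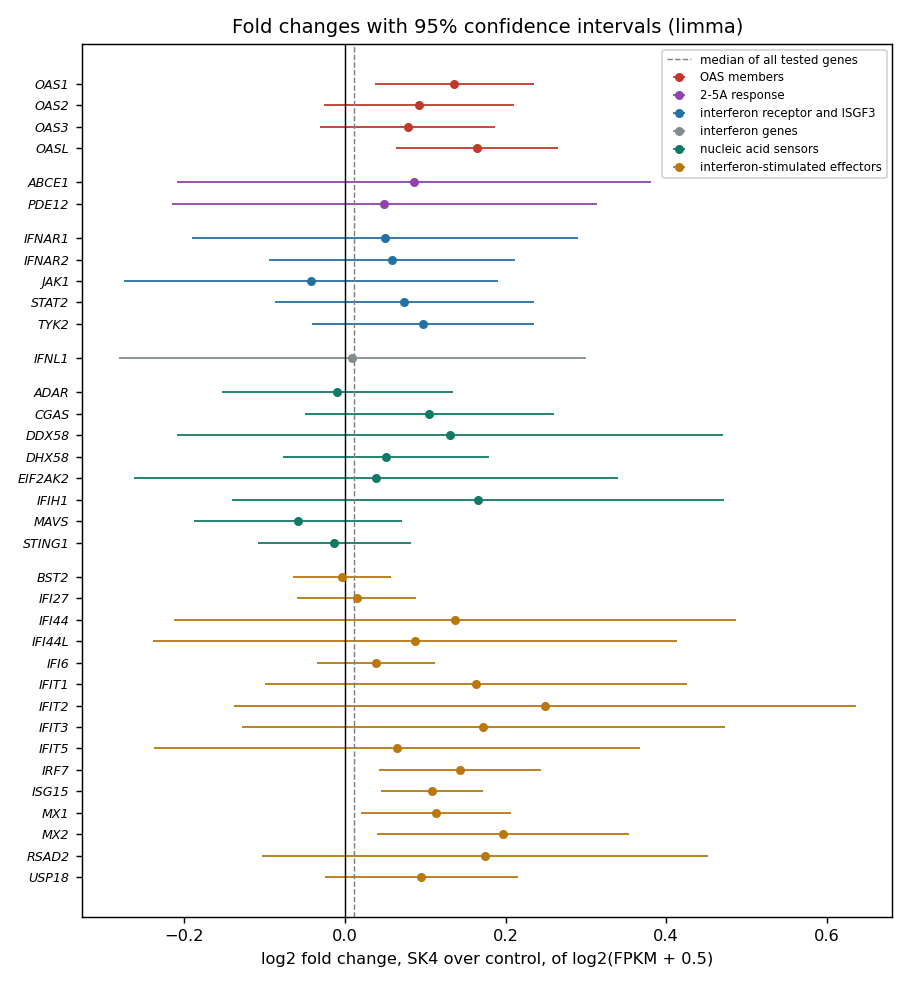
Log2 fold change, SK4 over control, with 95% confidence intervals from limma for the 4 OAS genes and the tested genes of 5 pathway lists (n = 3 libraries per group). The OAS1 and OASL intervals lie above 0, those of OAS2 and OAS3 include 0, and the dashed line marks the median of all tested genes, 0.011.

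The genes whose levels over the 6 libraries were most like the mean of the OAS members were led by the MX genes. Likeness was the Pearson correlation of log2(FPKM + 0.5), over 11135 other tested genes. MX1 and MX2 reached 0.996 and 0.990. CCN2, a secreted matrix-associated protein gene, reached 0.989, TMEM268, which encodes a membrane protein, 0.986, and MPC1, a subunit of the mitochondrial pyruvate carrier, 0.976. PEDS1-UBE2V1, a read-through of neighbouring genes whose reads are shared with them, reached 0.975. A value above 0.9 was reached by 0.557% of the genes, and the median was 0.19. The correlations pool both groups and carry no test, and none of these 6 genes was called (limma, adjusted p = 0.99997 each).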

How the data were processed

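Gene expression was measured by strand-specific poly(A) RNA-seq in 3 SK4 and 3 control libraries, grouped by their titles. Per the submitters' processing notes, HISAT2 and GRCh38 were used; the sources used here give no versions, counting tool or annotation release. The authors deposited FPKM values, rounded to 2 decimals, in 1 column per library. FPKM corrects for gene length and total depth, not for other differences between libraries. Depth was estimated from the FPKM steps of 561 short single-exon genes, of whose values up to 5 fragments at least 99.4% were whole within 0.1.

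The 11139 genes that reached 1 FPKM in 3 or more of the 6 libraries were tested. Values were log2(FPKM + 0.5), and fold changes on that scale understate changes of low genes. limma 3.58.1 in R 4.3.3 compared the groups over the whole table, with a trended and robust prior variance; called genes had an adjusted p (Benjamini-Hochberg) below 0.05. Single values were compared by an exact two-sided permutation test over libraries. The fit was also run on simulated data with added changes far larger than the fold changes of the members. That run says nothing about changes as small as theirs. Members and lists were chosen with earlier results of these data known. Named genes were the members, the pathway lists, the neighbours, KCNN4 and the 6 genes with the highest likeness to the members. Some listed genes and neighbours are not reported here. Alternatives covered the pseudocount, the filter, the scaling, library weights, the prior, a replicate term and leaving out libraries; the pathway list medians without single libraries or with weights were added later. Promoters are RefSeq sequences on GRCh38.p14, held for 2 of the 4 members; gene models are from GENCODE release 29, and 31742 of 32896 identifiers matched without their version.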

Additional observations from a re-analysis of the deposited data

How the results depend on the processing

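All 4 members kept a positive log2 fold change and none was called under any of the 16 alternatives to the fit (limma). The ranges were 0.11 to 0.17 for OAS1, 0.048 to 0.12 for OAS2, 0.055 to 0.11 for OAS3 and 0.12 to 0.21 for OASL. The lowest adjusted p was 0.388, for OAS1 with library weights, within a range of 0.388 to 1 for that gene. OAS1 had an unadjusted p of 0.0675 with each library centred on its median and of 0.0544 without SK4 replicate 3. The OAS2 value of 0.048 came without control replicate 3. The members' median ranged from 0.092 to 0.13. The summed OAS level and the OAS3 share were run under 7 alternatives only, median centring and leaving out single libraries. There the summed level stayed higher in SK4 libraries, by 12.1 to 14.5 FPKM. The OAS3 share, SK4 minus control, ranged from -0.862 to -0.318 percentage points, and centring cannot change it. Under all 16 alternatives to the fit 0 genes of the pathway lists were called. Over all tested genes 1 was called in 15 of the alternatives and 4 when control replicate 3 and SK4 replicate 2 were both left out; the cause was not tested. With the replicate block 1 gene was called, as without it. Deviations of the libraries with the same number correlated at 0.31, -0.41 and -0.15 for replicates 1 to 3, and 1 of 6 libraries correlated best with its own number. So few libraries cannot show whether the replicate numbers mark pairs. With 3 libraries a group and intervals as above, changes of these genes as small as those seen, or smaller, were not resolved after adjustment.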
